A study of Mus musculus with 12 samples.

Results

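The 10 genes described here set how strongly arterial smooth muscle answers constricting signals. They are the ligand gene Edn1, the receptor genes Ednra, Ednrb, Adra1a, Adra1b, Adra1d, Avpr1a and Htr2b, and the regulators Rgs2 and Rgs5, taken from 32052 genes named on the array. All of their probes on the array were used, 14 in number, found by the gene name in the scanner files. Of the 10 genes, 8 had at least 1 probe bright enough to test, as had 11 of the 14 probes. Adra1a and Htr2b had none.

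RNA came from the aorta of male C57BL/6J mice aged 11 to 14 weeks, on day 3 of treatment, with 3 mice in each of 4 groups and 1 array a mouse. The challenge, labelled BA here, was an infusion by minipump of beta-aminopropionitrile (BAPN) at 150 mg/kg/day and angiotensin II (AngII) at 1 µg/kg/min. BAPN blocks the crosslinking of collagen and elastin, AngII is itself a constrictor, and the combination leads to aortic dissection. Rapamycin, which inhibits the mTOR kinase, was injected at 2 mg/kg once a day, and mice without it received its solvent, dimethyl sulfoxide (DMSO). The groups are DMSO, rapamycin, BA+DMSO and BA+rapamycin, and no group carried a transgene. The DMSO mice are the baseline, and their titles begin with Pre, a word the study also uses for mice before the challenge, so whether this baseline was taken after DMSO for the same days as the other groups rests on the series record. Each sample was the whole wall of a 10 mm stretch of aorta above the right renal artery, so it holds smooth muscle, endothelium, adventitia and infiltrating cells together. In such a mixture, fewer cells of a type and less RNA per cell cannot be told apart.

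Endothelin, noradrenaline, vasopressin and serotonin constrict arteries through receptors that couple to the G protein Gq. Gq activates phospholipase C, which releases calcium from stores inside the cell, and the calcium makes the muscle contract. RGS proteins end the signal by speeding the hydrolysis of GTP on the G protein, and mice without Rgs2 are hypertensive. Rgs5 is a familiar marker of pericytes and arterial smooth muscle.

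RefSeq windows of 300 bases, from 250 bases before the transcription start to 50 after it, were at hand for 8 of the 10 genes in the build GRCm38.p6. Adra1a and Adra1d were the genes without one. Those of Rgs5 and Rgs2 are shown, because both genes were lower in BA+DMSO than in DMSO. Capitals mark any match to 5 motifs searched on both strands, which were the CArG box by name, the cyclic AMP response element or CRE (TGACGTCA), the AP-1 site (TGANTCA), the site of GATA factors (GATAA) and the core promoter element called TATA box (TATAAA). The Rgs5 window lies at chr1:169655251-169655550 on the plus strand and the Rgs2 window at chr1:144004100-144004399 on the minus strand.
Rgs5 promoter: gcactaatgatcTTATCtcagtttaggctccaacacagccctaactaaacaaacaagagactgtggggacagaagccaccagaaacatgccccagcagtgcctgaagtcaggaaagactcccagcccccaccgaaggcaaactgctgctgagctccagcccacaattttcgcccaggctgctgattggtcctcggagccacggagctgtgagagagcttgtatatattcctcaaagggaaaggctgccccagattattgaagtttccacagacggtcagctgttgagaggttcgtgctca
Rgs2 promoter: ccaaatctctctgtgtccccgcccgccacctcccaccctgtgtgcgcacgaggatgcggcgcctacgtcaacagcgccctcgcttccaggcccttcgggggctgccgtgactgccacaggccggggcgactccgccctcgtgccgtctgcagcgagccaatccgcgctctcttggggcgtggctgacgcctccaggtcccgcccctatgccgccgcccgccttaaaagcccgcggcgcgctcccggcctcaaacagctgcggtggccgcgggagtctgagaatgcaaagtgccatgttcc
The Rgs5 window holds 1 match, to GATAA on the opposite strand, and 25.4% of all 32851 windows hold that motif. The Rgs2 window holds none of the 5 and has a GC content of 70.0%, against 52.3% for Rgs5. No CArG box, the motif of serum response factor, was found in any of the 9 windows of these genes, and 1.63% of all windows hold one. The other matches were AP-1 in 1 of 2 Adra1b windows and in Htr2b (7.81% of all windows), a TATA box in Avpr1a (13.6%) and GATAA in Edn1.

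Levels are given on the log2 scale as the processed signal of a probe minus the 75th percentile of its array, so 0 is the brightness of that percentile. Levels of different probes cannot be set against each other. A probe was called well above background by the scanner software, and it was tested if it was so on all 3 arrays of at least 1 group. Differences were tested with limma across 27801 probes, with p values adjusted by the Benjamini-Hochberg method over all of them, and called at an adjusted p under 0.05. Arrays of challenged mice were dimmer. Their 75th percentile ranged from 74.6 to 246.4 intensity units against 221.5 to 337.3 in the other groups. All DMSO arrays and 1 rapamycin array lay on one slide, and 2 rapamycin arrays and all challenged arrays on the other. The slide and the challenge therefore cannot be told apart in BA+DMSO against DMSO, but BA+rapamycin can be set against 2 rapamycin arrays of the same slide. BA+DMSO replicates 2 and 3 each stood apart from the rest of their group for some of these genes. Replicate 3 was the brightest of the challenged arrays (246.4) and had the highest Rgs5 and Adra1d levels among them. Leaving out either moved the calls, and results that rest on one of them are given with and without it.

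Rgs5, Adra1d and Rgs2 were called lower in BA+DMSO than in DMSO, where slide and challenge cannot be told apart. On all 12 arrays none of the 8 tested genes was called higher in that comparison. Rgs5 and the first Rgs2 probe were well above background on every array, whereas Adra1d entered the test only through the unchallenged groups, the high side of the comparison. Of all 18892 tested genes, 11.5% were called lower in BA+DMSO than in DMSO and 10.4% higher. The levels of the ligand Edn1 and its main smooth muscle receptor Ednra overlapped between the groups. Under rapamycin, Rgs2 was not called (-0.48, limma adjusted p = 0.122). There Rgs5 was again lower with the challenge and Adra1b was called higher at 1 of its 2 probes. Adra1d and Avpr1a were called lower too, but no BA+rapamycin array was well above background for either, and Avpr1a entered the test only through the rapamycin arrays. Of all tested genes, 23.5% were called lower in that comparison and 19.4% higher.

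**Figure D1:**
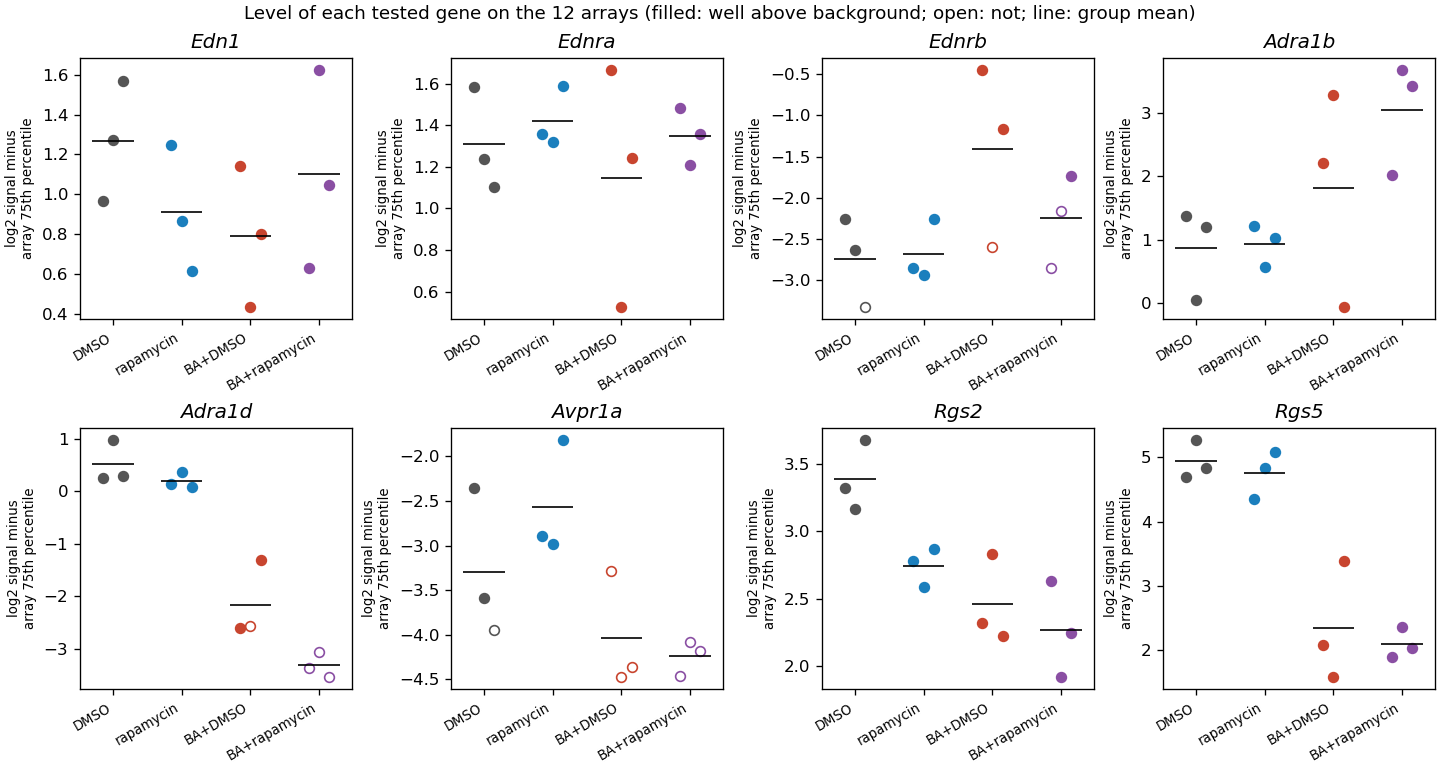
Level of the 8 tested genes on each of the 12 arrays, by treatment group (log2 processed signal minus the 75th percentile of the array; filled points were well above background, open points were not, and lines are means of 3 arrays). Rgs5 lies between 4.35 and 5.27 in unchallenged mice and between 1.58 and 3.38 in challenged mice, while the 4 groups of Edn1 and Ednra overlap.

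Rgs5 encodes an RGS protein that acts on Gq and Gi subunits. Its probe lies at chr1:171623021-171623080 (mm9, plus strand) and was well above background on all 12 arrays. The levels in DMSO mice were 4.70, 5.27 and 4.83, those in rapamycin mice 4.35, 4.83 and 5.08, those in BA+DMSO mice 2.08, 1.58 and 3.38, and those in BA+rapamycin mice 1.89, 2.36 and 2.04. Every challenged mouse lay below every unchallenged mouse, and the groups with and without rapamycin overlapped on each side. Rgs5 was 6.00-fold lower in BA+DMSO than in DMSO (log2 difference -2.58, SE 0.39, limma adjusted p = 0.00192). It was 6.31-fold lower in BA+rapamycin than in rapamycin (-2.66, SE 0.39, adjusted p = 0.00104). Within the slide that holds all challenged arrays, with 2 rapamycin arrays, the second difference was -2.86 (adjusted p = 0.0167). With array brightness as a covariate it was -1.27 (adjusted p = 0.156), and the first was -1.79 (adjusted p = 0.0105). With the slide as a term the first was -3.19 (adjusted p = 0.165), and with array weights -2.22 (adjusted p = 0.246).

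Rgs2, which encodes an RGS protein selective for Gq, was read by 2 probes on chromosome 1. The probe that stands for the gene, at chr1:145848830-145848889 (mm9, minus strand), starts 1603 bases from the other on the genome and was well above background on all 12 arrays. Its 60 bases are shown because the probes differ in brightness, the other being well above background on 4 of 12 arrays.
Rgs2 probe: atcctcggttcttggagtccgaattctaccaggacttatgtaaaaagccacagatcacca
The levels of this probe were 3.32, 3.17 and 3.68 in DMSO mice, 2.78, 2.59 and 2.87 in rapamycin mice, 2.32, 2.84 and 2.22 in BA+DMSO mice and 2.63, 1.92 and 2.25 in BA+rapamycin mice. The DMSO mice lay above all 9 others, and the other 3 groups overlapped. Rgs2 was 1.90-fold lower in BA+DMSO than in DMSO (-0.93, SE 0.24, adjusted p = 0.0202). The difference was -1.12 without BA+DMSO replicate 2 (adjusted p = 0.00637), and without DMSO replicate 1, DMSO replicate 3 or BA+DMSO replicate 1 it was between -0.78 and -0.96 and lost the call, with adjusted p up to 0.0803. With the slide as a term it was -0.88 (adjusted p = 0.521). The second probe passed the filter only through the DMSO arrays and had no BA+DMSO array well above background, which makes it at least 1.32-fold lower there (adjusted p = 0.00326) and no independent check.

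Rapamycin without challenge also went with lower Rgs2 levels that did not pass the test. The rapamycin and DMSO arrays did not overlap at either probe, and the share of all tested genes without overlap was not computed. The differences were -0.64 (limma adjusted p = 1) at the first and -1.03 (limma adjusted p = 0.751) at the second. The second probe had 1 rapamycin array well above background and entered the test only through the DMSO arrays, the high side. It is therefore no independent check here. Of all tested genes 0.00529% were called in that comparison, which is 1 gene. On the slide that holds the DMSO arrays, with 1 rapamycin array, the first probe differed by -0.61. With array weights the first probe was called (-0.61, adjusted p = 0.0394). From rapamycin to BA+rapamycin, Rgs2 differed by -0.48 (95% interval -0.998 to 0.04, adjusted p = 0.122) at the first probe. The test of whether rapamycin acted differently with and without challenge gave 0.45 (SE 0.33, adjusted p = 0.737) at the first probe. At the second it gave 1.07 (SE 0.42, limma adjusted p = 0.737), with no challenged array well above background.

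Adra1d encodes the alpha-1D adrenergic receptor, the subtype through which noradrenaline constricts the mouse aorta. Its representative probe at chr2:131371198-131371257 (mm9, minus strand) gave 0.26, 0.98 and 0.29 in DMSO mice, 0.14, 0.37 and 0.08 in rapamycin mice, -2.61, -2.57 and -1.31 in BA+DMSO mice and -3.36, -3.06 and -3.55 in BA+rapamycin mice. All challenged arrays lay below all unchallenged ones. Of the BA+DMSO arrays 2 gave a signal well above background, and of the BA+rapamycin arrays none did. Adra1d was 6.37-fold lower in BA+DMSO than in DMSO (-2.67, SE 0.34, adjusted p = 0.000778). It was at least 7.41-fold lower in BA+rapamycin than in rapamycin (limma adjusted p = 0.000118, and 0.00731 within the slide of the challenged arrays), and no size beyond that bound can be given. Both Adra1d probes passed the filter through the unchallenged groups alone, the high side of these comparisons, and neither was tested when probes had to be well above background on all 12 arrays. The second probe, whose genomic start lies 523 bases from that of the first, was well above background on 1 BA+DMSO array and no BA+rapamycin array. It was called lower in BA+DMSO (-2.36, adjusted p = 0.0157) and was at least 3.32-fold lower in BA+rapamycin (adjusted p = 0.00415). With normexp background correction, which draws dim spots together, the first difference of the representative probe was -1.43 (adjusted p = 0.000429) and the second -1.25 (adjusted p = 0.000523). The first lost its call with the slide as a term (-2.75, adjusted p = 0.179) and with array weights (-2.34, adjusted p = 0.173).

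At the representative Adra1d probe, the BA+rapamycin values lay below the BA+DMSO values without overlap. The share of all tested genes that separate in this way was not computed, so this is a description. BA+DMSO replicate 2, like the BA+rapamycin arrays, was not well above background, so the order of these arrays was not measured. BA+rapamycin had no array well above background either, so no size and no bound is given for this difference. The call was not reached (limma adjusted p = 0.130). Without BA+DMSO replicate 2 the call was reached (adjusted p = 0.0165), and without replicate 3 it was not (adjusted p = 0.233). With normexp it was not reached either, and the difference was -0.0985 (adjusted p = 0.715). The second probe overlapped between the groups (adjusted p = 0.367).

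**Figure D2:**
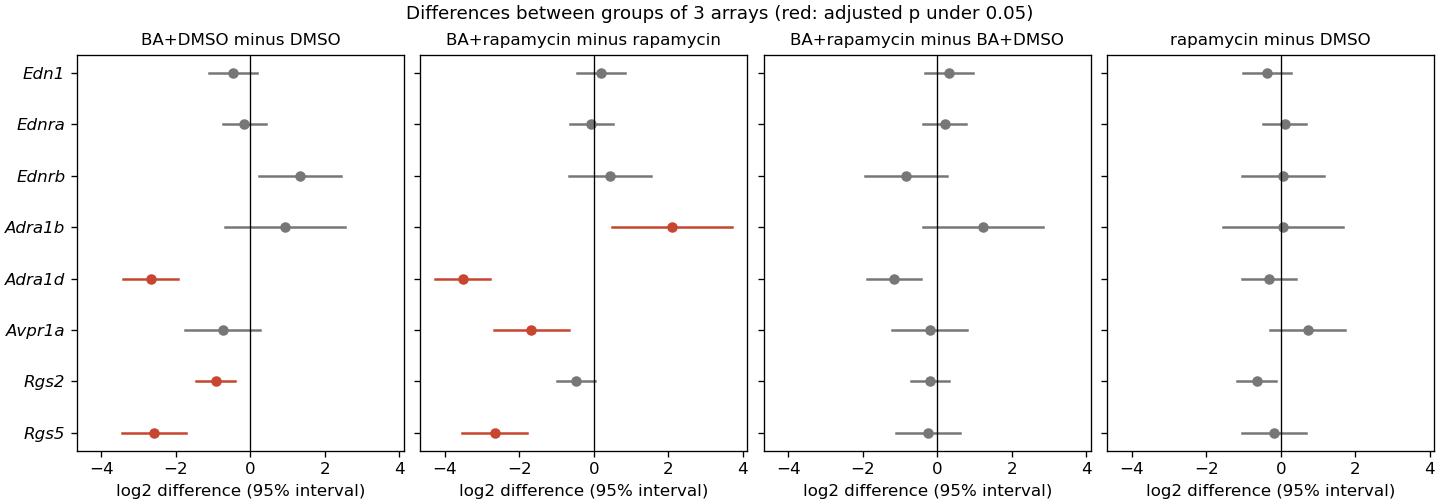
Differences between groups for the 8 tested genes (log2 difference with its 95% interval, 3 arrays against 3; red marks an adjusted p under 0.05). Rgs5 lies at -2.58 and -2.66 in the challenge comparisons, the plotted Adra1d and Avpr1a values of BA+rapamycin rest on arrays not well above background, and no gene is red in either rapamycin comparison.

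Adra1b, which encodes the alpha-1B adrenergic receptor, gave 2 readings that went opposite ways. Both of its probes lie on chromosome 11, were well above background on all 12 arrays and start 920 bases apart. The probe nearer the 3′ end, at chr11:43588147-43588206 (mm9, minus strand), gave 1.37, 0.05 and 1.21 in DMSO mice, 1.22, 0.57 and 1.03 in rapamycin mice, 2.21, 3.28 and -0.06 in BA+DMSO mice and 2.02, 3.67 and 3.42 in BA+rapamycin mice. The other, at chr11:43589067-43589126, gave 1.20, 0.27 and -0.07 in DMSO mice, 0.55, 0.80 and 1.097 in rapamycin mice, -0.65, -0.39 and 1.48 in BA+DMSO mice and -0.41, -0.42 and -0.32 in BA+rapamycin mice. At each probe BA+rapamycin did not overlap rapamycin, above it at the first and below it at the second. BA+DMSO replicate 3 had the lowest value of all 12 arrays at the first probe and the highest at the second. The first probe was 4.29-fold higher in BA+rapamycin than in rapamycin (2.10, SE 0.74, adjusted p = 0.0407), and the second differed by -1.20 (SE 0.49, adjusted p = 0.0703). The mean of both probes differed by 0.45 (adjusted p = 0.268). With array brightness as a covariate the first probe reversed to -0.84 (adjusted p = 0.551). Within the slide of the challenged arrays it was 2.24 (adjusted p = 0.115), and leaving out single arrays gave 1.78 to 2.61 with adjusted p up to 0.126. Without BA+DMSO replicate 3, the first probe was also called higher in BA+DMSO than in DMSO (1.87, adjusted p = 0.0242), against 0.93 (adjusted p = 0.393) on all arrays. A direction for Adra1b is therefore not given.

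Avpr1a encodes the V1a vasopressin receptor. Its probe at chr10:121890135-121890194 (mm9, plus strand) gave -2.35, -3.59 and -3.94 in DMSO mice, -2.90, -2.98 and -1.82 in rapamycin mice, -3.28, -4.47 and -4.36 in BA+DMSO mice and -4.46, -4.08 and -4.18 in BA+rapamycin mice. It was well above background on 2 DMSO arrays, 3 rapamycin arrays and no challenged array. The probe thus passed the filter only through the rapamycin group. BA+rapamycin lay below rapamycin without overlap, at least 1.09-fold lower (limma adjusted p = 0.0155), and no size beyond that bound can be given. Within the slide of the challenged arrays the adjusted p was 0.0411. The call was lost without rapamycin replicate 3 (adjusted p = 0.0676) and with the brightness covariate (adjusted p = 0.398), and the direction turned with normexp (0.38, adjusted p = 0.132). BA+DMSO overlapped DMSO (adjusted p = 0.272).

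None of the endothelin genes was called. Edn1, the gene of the endothelin 1 peptide, is read by a probe printed on 10 spots of each array at chr13:42403101-42403160 (mm9, plus strand). Its levels were 0.97, 1.27 and 1.57 in DMSO mice, 1.25, 0.87 and 0.62 in rapamycin mice, 1.14, 0.43 and 0.80 in BA+DMSO mice and 0.63, 1.62 and 1.05 in BA+rapamycin mice. All 4 groups overlapped. The challenge gave a difference of -0.48 (95% interval -1.12 to 0.16, adjusted p = 0.268) with DMSO and 0.19 (-0.45 to 0.83, adjusted p = 0.612) with rapamycin, so a rise above 1.78-fold lies outside both intervals.

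Ednra, which encodes the ETA receptor of smooth muscle, gave 1.58, 1.24 and 1.11 in DMSO mice, 1.36, 1.32 and 1.59 in rapamycin mice, 1.67, 0.53 and 1.24 in BA+DMSO mice and 1.48, 1.21 and 1.36 in BA+rapamycin mice. The groups overlapped, and BA+DMSO replicate 2 was the lowest of the 12. The challenge gave -0.16 (95% interval -0.74 to 0.41) with DMSO and -0.07 (-0.65 to 0.50) with rapamycin, with adjusted p of 0.691 and 0.834.

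Ednrb, which encodes the ETB receptor of endothelium and some smooth muscle, gave -2.26, -2.63 and -3.32 in DMSO mice, -2.85, -2.93 and -2.26 in rapamycin mice, -0.45, -2.60 and -1.16 in BA+DMSO mice and -2.85, -2.15 and -1.74 in BA+rapamycin mice. It was well above background on 8 of 12 arrays, which were 2 DMSO, 3 rapamycin, 2 BA+DMSO and 1 BA+rapamycin arrays. The probe thus passed the filter only through the rapamycin group. In BA+DMSO, replicates 1 and 3 were the highest of the 12 arrays and replicate 2 lay among the DMSO arrays. The difference from DMSO was 1.34 (95% interval 0.23 to 2.44, adjusted p = 0.0823). Without replicate 2 it was 1.93 and passed (adjusted p = 0.00783). BA+rapamycin, with 1 array well above background, was then called lower than BA+DMSO by -1.44 (adjusted p = 0.0209), a size that rests mostly on signal near background. On all arrays the latter difference was -0.84 (adjusted p = 0.330). A second Ednrb probe, which starts 6386 bases away on the genome, was not tested. It was well above background on BA+DMSO replicates 1 and 3 and on rapamycin replicate 3, 3 of 12 arrays.

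The remaining 2 genes had no probe bright enough to test. Adra1a, which encodes the alpha-1A receptor, was not well above background on any of the 12 arrays. Htr2b, the 5-HT2B serotonin receptor, was well above background on BA+DMSO replicate 2 and BA+rapamycin replicate 1 and on no other. Without the filter on dim probes, over 55675 probes, limma called Htr2b higher in BA+rapamycin than in rapamycin (adjusted p = 0.0248), where 1 of 6 arrays was above background, and called Adra1a in no comparison of groups.

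By limma, rapamycin under challenge called 0 of the 8 tested genes, with 1 of the 8 at an unadjusted p under 0.05, and 0.302% of all tested genes. The test of the difference in its effect with and without challenge called 0 of them and 0% of all tested genes, with none of the 8 at an unadjusted p under 0.05 by the probe that stands for the gene, while the second Rgs2 probe was under it. For Rgs5, BA+rapamycin differed from BA+DMSO by -0.25 (95% interval -1.12 to 0.62, adjusted p = 0.692), and for Rgs2 by -0.19 (-0.71 to 0.33, adjusted p = 0.606). These intervals leave out a rise of Rgs5 above 1.53-fold and of Rgs2 above 1.25-fold. Edn1 differed by 0.31 and Ednra by 0.20, with adjusted p of 0.508 and 0.628.

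Without BA+DMSO replicate 2, 3 of the 8 genes were called in this comparison, and 11092 of all 27801 probes against 78 with all arrays. They were Adra1d and Ednrb, given above, and Adra1b at the first of its 2 opposed probes (1.96, adjusted p = 0.0484). Rgs5 was then at -0.64 (adjusted p = 0.186) and Rgs2 at -0.01 (adjusted p = 0.983). The interaction then called 3058 of all 27801 probes, against 0 with all arrays, and by limma 0 of the 8 genes, with 1 of the 8, Ednrb, at an unadjusted p under 0.05 (-1.498, limma adjusted p = 0.0864). Without BA+DMSO replicate 3 instead, rapamycin under challenge called 34 probes and none of the 8 genes by limma, and Rgs5 was at 0.27 (adjusted p = 0.772). The challenge with DMSO then called 10574 probes, against 5697 with all arrays, and 4 of the 8 genes, with Rgs5 at -3.10 (adjusted p = 0.000203), Adra1d at -3.10 (adjusted p = 0.000173), Rgs2 at -0.81 (adjusted p = 0.0303) and Adra1b as given above.

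**Figure D3:**
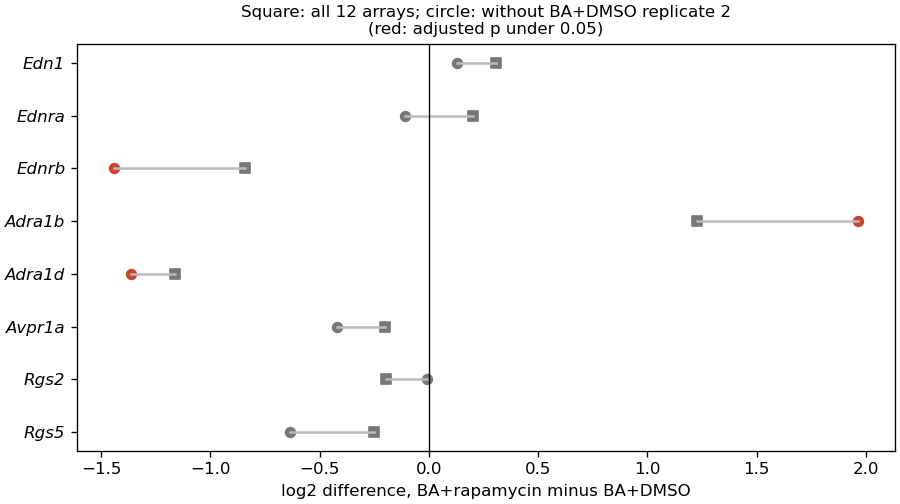
Difference between BA+rapamycin and BA+DMSO for the 8 tested genes on the log2 scale, with all 12 arrays (squares) and without BA+DMSO replicate 2 (circles). Adra1b is shown by its first probe only. The shift is largest for Adra1b (1.23 to 1.96), Ednrb (-0.84 to -1.44) and Rgs5 (-0.25 to -0.64), and red marks an adjusted p under 0.05.

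Markers of several other cell types also differed between challenged and unchallenged groups. Of 8 tested macrophage markers, 7 were called higher in BA+DMSO than in DMSO and none lower, and their summed level, in multiples of the 75th percentile of the array, went from 111.2 to 141.3 in DMSO to between 190.3 and 492.2 in BA+DMSO and between 379.3 and 505.9 in BA+rapamycin. Itgam, the macrophage marker not called with DMSO (limma adjusted p = 0.0906), adds most to that sum. Of 8 fibroblast markers, 3 rose and none fell, with sums of 584.7 to 882.9 in DMSO and 809.3 to 1445 in BA+DMSO. Dcn and Pi16, which add most to it, were not called with DMSO (limma adjusted p = 0.882 and 0.0669). Of 12 endothelial markers, 4 rose and none fell, with sums of 75.7 to 94.3 in DMSO and 108.0 to 131.6 in BA+DMSO. Vwf, which adds most to the endothelial sum, was not called with DMSO (limma adjusted p = 0.192). Under rapamycin 2 endothelial markers rose and 2 fell, among them Pecam1 (-0.87, adjusted p = 0.0257) and Tek (-0.99, adjusted p = 0.0415), while 6 macrophage and 4 fibroblast markers rose and none of either fell. BA+DMSO replicate 3 had the lowest macrophage and fibroblast sums of its group, 190.3 and 809.3, against at least 383.9 and 1354 in replicates 1 and 2. Of 6 tested adipocyte markers, Ucp1, which entered the test only through the BA+DMSO arrays, was called higher with DMSO and Cidea lower under rapamycin, with sums of 31.3 to 41.6 in DMSO, 22.6 to 52.6 in rapamycin, 33.8 to 154.2 for the BA+DMSO arrays and 19.7 to 170.5 for BA+rapamycin. Of 6 tested striated muscle markers, 1 rose and none fell with DMSO, and 2 rose and 1 fell under rapamycin. Their sums, set mainly by Acta1, were 57.8 to 61.2 in DMSO, 50.7 to 59.5 in rapamycin, 19.0, 23.7 and 63.0 for the BA+DMSO arrays and 16.8 to 27.6 for BA+rapamycin. Of 5 tested nerve and Schwann cell markers, 1 rose with DMSO, S100b, and limma called none under rapamycin, where none was under an unadjusted p of 0.05. Their sums were higher without overlap in both comparisons. They were 3.38 to 4.03 in DMSO, 5.15 to 8.515 in BA+DMSO, 3.95 to 4.37 in rapamycin and 5.50 to 6.31 in BA+rapamycin. Of 5 platelet markers, 1 was called higher with DMSO and 2 under rapamycin, with sums of 6.45 to 16.3 in DMSO and 18.3 to 40.8 in BA+DMSO. The sums of rapamycin (9.63 to 11.9) and BA+rapamycin (10.75 to 13.7) overlapped. The 2 called under rapamycin, Gp9 and Itga2b, were each well above background on 1 BA+rapamycin array, and on 0 and 1 rapamycin arrays. None of 7 markers of liver, kidney and adrenal gland was bright enough to test. The part of these cells in the results was not tested.

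Contractile smooth muscle markers did not share one direction. All 10 were well above background on all 12 arrays. Under the challenge with DMSO 2 were called lower and none higher, Synpo2 by -2.58 (adjusted p = 0.000955) and Lmod1 by -1.91 (adjusted p = 0.00190). The actin gene Acta2 differed by 0.27 (adjusted p = 0.402) and Tagln by 0.45 (adjusted p = 0.272). The summed level of the 10, to which Acta2 and Tagln add most, was 2946 to 3167 in DMSO mice and 2472 to 4871 in BA+DMSO mice. It was 2687 to 3140 in rapamycin mice and 3504 to 4540 in BA+rapamycin mice, without overlap. Under rapamycin 4 were called lower, Synpo2 (-2.82), Lmod1 (-1.89), Des (-1.79) and Myocd (-0.97), and Tagln was called higher (1.05, adjusted p = 0.0130). The median difference of the 10 genes was -0.62 with DMSO and -0.66 under rapamycin. Of 8 pericyte markers, Notch3 (-1.70) and Mcam (-1.07) fell and Higd1b (0.69) rose, with adjusted p of 0.00562, 0.0191 and 0.0191. Under rapamycin Notch3 and Mcam (-1.03) fell and Higd1b (0.86), Kcnj8 (0.83) and Cspg4 (0.79) rose. The summed pericyte level was 141.3 to 165.8 in rapamycin and 174.3 to 193.1 in BA+rapamycin, higher without overlap. It was 154.2 to 177.6 in DMSO and 133.9 to 200.1 in BA+DMSO, with overlap. Rgs5, which is not in this list, was lower in both comparisons.

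To set these genes against the contractile list, each of the 10 genes was centred on its own mean over the 12 arrays, and the median of the 10 on an array was subtracted, a scale chosen after the data were seen. On that scale Rgs5 was lower on every array of BA+rapamycin than of rapamycin, and Rgs5 and Adra1d on every array of BA+DMSO than of DMSO. Rgs5 differed by -2.07 under rapamycin and -1.93 with DMSO, and Adra1d by -2.02 with DMSO. Each had an exact permutation p of 0.1 (two-sided), the smallest that 3 against 3 allows, so no outcome could have passed. Both genes had already been called lower in the same comparisons of the same arrays. Adra1d had also passed the filter through the unchallenged groups alone. Their differences on this scale are therefore descriptions and no independent check of the falls. For Adra1d under rapamycin no size is given, since no BA+rapamycin array was well above background. Rgs2 differed by 0.11 (exact p = 0.7) and -0.27 (exact p = 0.6), and overlapped between the groups in both comparisons. The contractile median itself ranged from -1.34 to 0.28 in BA+DMSO and from 0.22 to 0.26 in DMSO. It ranged from -0.47 to -0.21 in BA+rapamycin and from 0.17 to 0.47 in rapamycin, lower without overlap. The summed level of the same 10 genes, given above, was higher in BA+rapamycin.

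**Figure D4:**
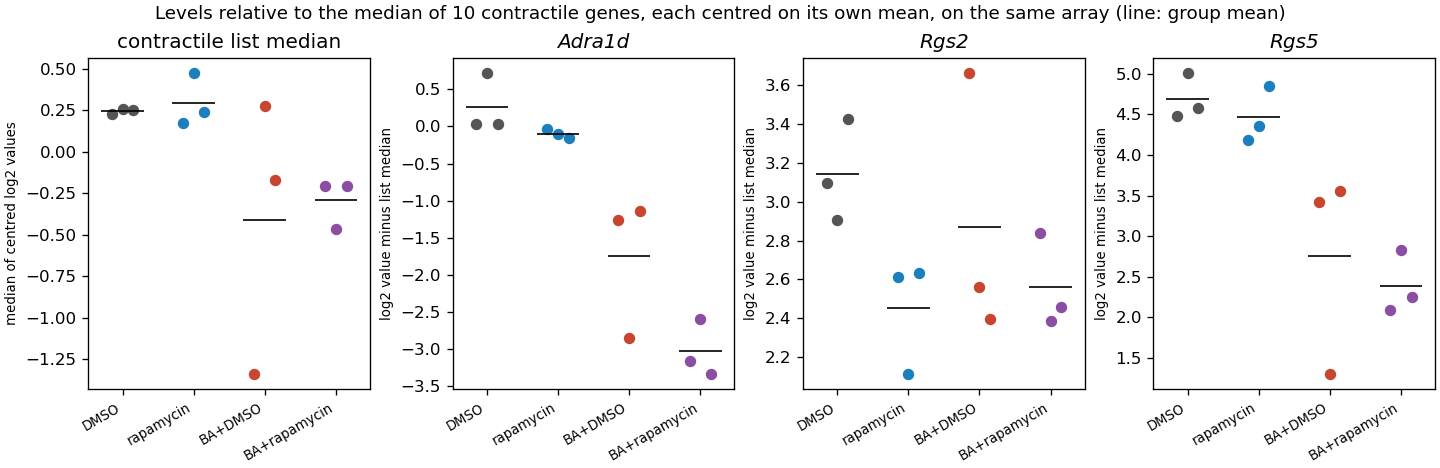
Median of 10 contractile smooth muscle genes on each array, each gene centred on its own mean over the 12 arrays, and Adra1d, Rgs2 and Rgs5 minus that median (log2 scale; lines are means of 3 arrays; the Adra1d values of BA+rapamycin were not well above background). Rgs5 lies lower in both challenged groups, with mean differences of -1.93 and -2.07, and Rgs2 overlaps between each challenged group and its control.

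Genes whose 12 values ran closest to each member were sought among 14741 other genes well above background on all arrays, by the mean absolute difference of centred log2 values. For Rgs5 they were Synpo2 (0.26), an actin-binding protein gene of smooth muscle, 2900054C01Rik (0.27) and Gm19606 (0.29). For Edn1 they were Smad3 (0.17), Stk10 (0.19) and Frmd4a (0.19), and for Ednra they were Nin (0.10), Rpl7 (0.12) and Rpl35a (0.12). For Rgs2 they were Zfp286 (0.17), Mtx3 (0.17) and D4Wsu53e (0.19), and Acot3 (0.12) led for the first Adra1b probe. Arrays share brightness and slide, so these are descriptions.

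The other genes of the pathway were taken in 7 lists, and the median difference over all tested genes was -0.04 with DMSO and -0.09 under rapamycin. Of the 63 tested genes of the lists, limma called 20 with DMSO and 31 under rapamycin. Of all tested genes, 11.5% were called lower and 10.4% higher with DMSO, and 23.5% lower and 19.4% higher under rapamycin. Whether any list differed from these shares was not tested. Below the receptors, 3 of 14 tested G protein and phospholipase C genes were called lower and 1 higher under the challenge with DMSO, with a median difference of -0.25. Itpr1, the calcium release channel of the stores, differed by -1.42 (adjusted p = 0.00207), the phospholipase gene Plcb4 by -1.24 (adjusted p = 0.00664) and Gnai1 by -1.07 (adjusted p = 0.0370), while Itpr3 differed by 0.59 (adjusted p = 0.0481). Under rapamycin 5 were lower and 2 higher, with a median of -0.40. Of 4 tested calcium entry genes, none was called by limma with DMSO, where 1 was under an unadjusted p of 0.05, and Stim1 alone fell under rapamycin (-0.60, adjusted p = 0.0263).

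Other constrictor receptors went both ways. Of 17 tested, 5 were called higher and 1 lower in BA+DMSO, and 4 higher and 4 lower in BA+rapamycin against rapamycin, with medians of 0.33 and 0.01. Among the lower ones under rapamycin, Ptger3 had no BA+rapamycin array well above background. The leukotriene receptor gene Cysltr1 rose by 2.31 (adjusted p = 0.00228), the prostaglandin receptor gene Ptger1 by 1.91 (adjusted p = 0.000792) and the sphingosine 1-phosphate receptor genes S1pr3 and S1pr2 by 1.60 and 1.49 (adjusted p = 0.0187 and 0.0189). The thromboxane receptor gene Tbxa2r fell, by 0.90 with DMSO (adjusted p = 0.0367) and by 1.60 under rapamycin (adjusted p = 0.00180). The neuropeptide Y receptor gene Npy1r fell by 1.84 under rapamycin (adjusted p = 0.00284). Agtr1a, the AngII receptor gene, named because its ligand was infused and not by the rule, went from -1.52 ± 0.51 in DMSO to -2.71 ± 1.40 in BA+DMSO (SD, n = 3 each) and did not pass (-1.19, adjusted p = 0.159).

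Among 7 tested other adrenergic, vasopressin and serotonin receptor genes, 2 were called lower and none higher with DMSO, and 3 lower and 1 higher under rapamycin, where Htr1b, among the lower, had no BA+rapamycin array well above background. The alpha-2A adrenergic receptor gene Adra2a fell by 2.04 (adjusted p = 0.00118) and the 5-HT2A receptor gene Htr2a by 1.44 (adjusted p = 0.0419). Under rapamycin Adra2a, with 1 BA+rapamycin array well above background, fell by 3.39 (adjusted p = 7.89e-05), and Adrb3, the beta-3 receptor gene of fat, rose by 2.24 (adjusted p = 0.0203). In that comparison the adipocyte markers had a median difference of 1.70, with 1 of 6 called, and their sums, given above, spread widely among the BA+rapamycin arrays. Median differences were -0.65 and -1.003.

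The other RGS genes went both ways. Of 11 tested, 4 were called higher and 1 lower in each challenge comparison, with medians of 0.33 and 0.30. Rgs14 rose by 1.77 (adjusted p = 0.00294), Rgs10 by 1.31 (adjusted p = 0.0202) and Rgs19 by 1.17 (adjusted p = 0.000823) with DMSO, and Rgs7 fell by 1.37 (adjusted p = 0.00736). Under rapamycin Rgs4, another regulator of Gq and Gi signals, rose by 1.50 (adjusted p = 0.0418), while with DMSO it was at 0.40 (adjusted p = 0.630).

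Of 3 tested endothelin enzyme genes, 1 was called higher with DMSO and 2 higher and 1 lower under rapamycin. The lower one, Mme, entered the test only through the rapamycin arrays and had no BA+rapamycin array well above background, so no fall was measured. Ece2, an endothelin-converting enzyme gene, rose by 1.89 (adjusted p = 0.000219) and by 1.80 (adjusted p = 0.000147), and Ece1 rose by 1.91 under rapamycin (adjusted p = 0.00594). Of 7 receptor kinase and arrestin genes, Arrb2 rose by 1.14 (adjusted p = 0.00571) and Adrbk2 fell by 1.02 (adjusted p = 0.0187) with DMSO. By limma, rapamycin under challenge called 0 of the 63 tested genes of the 7 lists, with 13 at an unadjusted p under 0.05, where 5585 of all 27801 probes were.

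**Figure D5:**
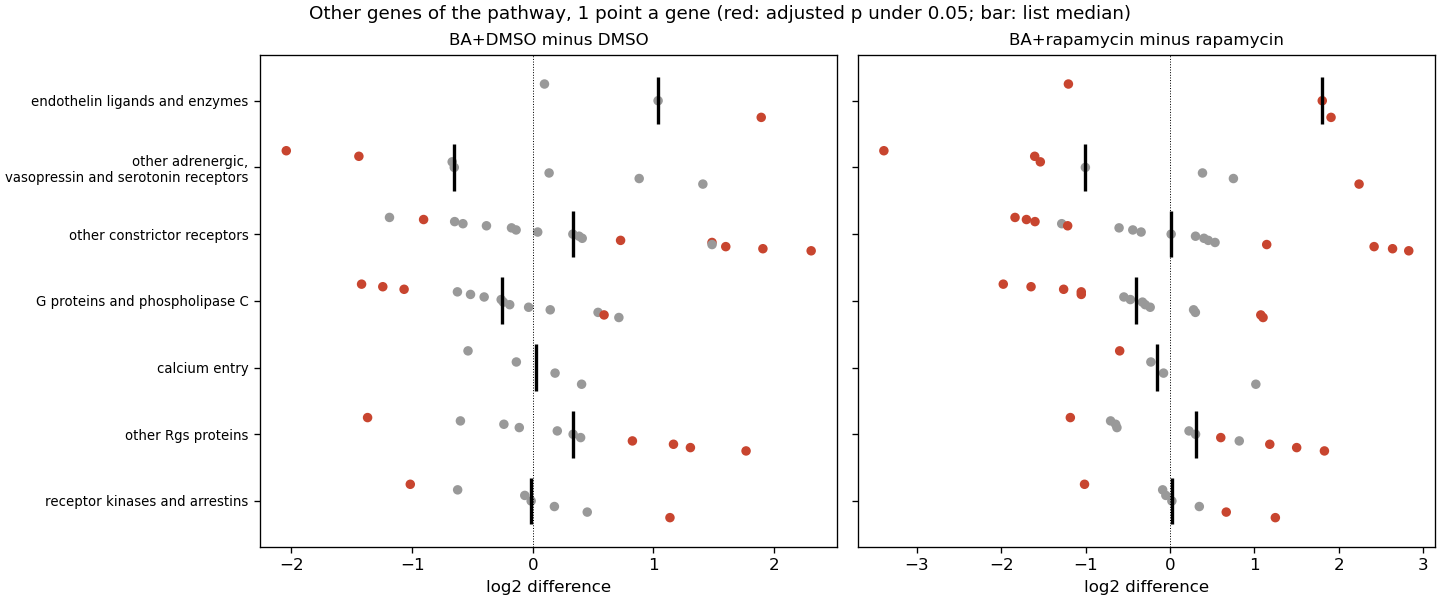
Differences of the other pathway genes in the challenge comparisons, by list (log2 difference, 1 point a gene; red marks an adjusted p under 0.05 and bars are list medians). The other RGS genes have a median of 0.33 in the left panel and the G protein and phospholipase C genes one of -0.25.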

How the data were processed

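Aortic RNA was labelled with Cy3 and hybridised by the authors to 1-colour Agilent mouse arrays. Samples were grouped by their treatment labels, and replicates, which are separate mice, were numbered in deposition order. Per the file headers, the scanner files come from Feature Extraction 10.7.1.1, while the submitters' processing notes name 9.5.1.1, and probes are placed on mm9. The deposited scanner files hold the processed signal, spot mean and local background as linear intensity, with other columns of 0 or 1 flags per spot. The authors' matrix gives intensities in linear units, and its values correlated with quantile-normalized values at 0.99957 to 0.99961 on each array.

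From these, log2 values were computed, outlier spots removed, spots of a probe averaged, and the 75th percentile of each array subtracted. Probes were tested where 1 group or more had all 3 arrays detected, meaning that at least 0.5 of the probe's spots carried the flag for well above background. All 12 arrays entered one limma 3.58.1 model (R 4.3.3) with moderated variances, two-sided, checked on simulated data. A gene stands by its tested probe with the highest mean. Where a group was not well above background on any array, a fold is a lower bound, computed against the lowest signal among detected probes. The number of arrays limits the precision. The 10 genes and the lists were chosen with earlier results of these data known. Named list genes are those called, at most the 4 largest differences per direction and comparison. A further list of pathway genes is not reported here. Alternatives were other normalizations, filters, blocks, weights, a brightness covariate and leaving out each array. Promoter windows come from RefSeq. Figures used matplotlib 3.10.9 (Python 3.11.15).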

Additional observations from a re-analysis of the deposited data

Results flagged for a closer look

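For Avpr1a, all 3 rapamycin arrays lay above the DMSO mean, and all 3 BA+rapamycin arrays lay below the BA+DMSO mean. The probe passed the filter only through the rapamycin group, so the filter favoured the first direction. No challenged array was well above background at this probe, so the second direction compares values with no measured level. The fitted difference between both rapamycin effects was -0.93 on the log2 scale, which is not a measured size for the same reason, and it did not pass the limma interaction test (adjusted p = 0.737).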

How the results depend on the processing

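The 3 genes called under the challenge with DMSO fell to 0 with the slide as a term and to 0 with array weights, where 15 and 112 of all 27801 probes were called against 5697, and leaving out single arrays gave 2 to 4. With rapamycin, the 4 genes called became 2 when probes had to be well above background on all 12 arrays, which leaves fewer genes tested, 1 with the brightness covariate and 2 with the study's threshold (unadjusted p under 0.01, fold over 4 or under 0.25), and leaving out single arrays gave 2 to 4, 2 being without rapamycin replicate 3 (6530 of 27801 probes). Over all probes the first 3 of these settings called 9772 of 20355, 1786 of 27801 and 1428 of 27801. The 4 became 5 with normexp (Ednrb and Rgs2 added, Avpr1a lost), with no filter (Htr2b added) and with array weights (Rgs2 added), where 17357 of 27801, 29650 of 55675 and 18256 of 27801 probes were called, against 11602. Only 1 BA+DMSO array has a date in its title, so the fit with that date as a random block left BA+DMSO with 1 array, assumed to vary like the other groups. Rapamycin under challenge then called 1 gene, Ednrb, and 4603 of 27801 probes, and with the same arrays and no block also 1 gene, Ednrb, and 4360 probes. With the 2 undated arrays kept as blocks of their own it called 0 of the 8 genes and 458 probes. On all arrays without a block 78 probes were called. This comparison called 0 to 3 when single arrays were left out, 3 being without BA+DMSO replicate 2. Rapamycin alone called 1 gene, Rgs2, with array weights, where 1512 probes were called against 1. Reversed differences were Avpr1a under rapamycin with normexp (0.38) and Adra1b under rapamycin with brightness (-0.84). The cause was not tested. The difference of Rgs2 under the challenge also lost its call without a filter (adjusted p = 0.0559) and in a fit of the 2 groups alone (0.0945). The Ednrb rise was called with normexp (0.97, adjusted p = 0.00207), brightness (2.07), and the arrays with a title date (2.35 with the block and 2.29 without), but not with the undated arrays kept (1.63, adjusted p = 0.0622). The slide of the DMSO arrays alone, the fits with undated arrays kept or without the block, and the block below were added after the data were seen. Signal near background limits Ednrb, Adra1d, Avpr1a and the second Rgs2 probe. Titles share a date and number in 3 pairs of arrays across groups, with no meaning given. The deviations of the paired arrays from their group means correlated at 0.09, 0.17 and -0.35. The highest correlations of the first array with the other arrays of the second array's group were 0.14, -0.08 and 0.33. Whether the shared title marks arrays that deviate together cannot be decided from 3 pairs. With that replicate block as a random effect (correlation -0.58) the number of the 8 genes called was unchanged in each of the 5 comparisons, and under the challenge with DMSO 5962 probes were called against 5697.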
